A study of Mus musculus with 4 samples.

Results

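The 4 names described here are both arms of 2 microRNA hairpins, mmu-miR-362-5p, mmu-miR-362-3p, mmu-miR-532-5p and mmu-miR-532-3p, out of 577 names on the array. They were selected because their hairpins share a cluster within the Clcn5 gene and with their total gene signals on these arrays, low after RBM3 knockdown, already known. The knockdown contrast of these 4 names is therefore given as a description. Where limma calls of the 4 names are listed below, they place them beside other names and are not a test of them. B104 is a clonal neuroblastoma line. Small RNA was profiled on Agilent mouse miRNA arrays, 2 arrays from cells transfected with 20 nM of an siRNA against RBM3 and 2 arrays from mock-transfected control cells, all harvested at 48 h. The labels give the organism as mouse, whereas the study cites the line to work on rat cells, and they do not say whether replicates came from separate cultures. The paper speaks of triplicate experiments for the array profiling, whereas 2 arrays per group were available here. Control cells received no siRNA duplex, so loss of RBM3 and exposure to an siRNA cannot be told apart on these arrays. The paper's blots of cells given a scrambled siRNA showed slightly raised RBM3 and let-7g, and did not include the 4 names. RBM3 itself has no probe among the names on the array.

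MicroRNAs are cut from a primary transcript as a hairpin by Drosha in the nucleus and then as a duplex by Dicer in the cytoplasm. Either strand of that duplex, the 5p or the 3p arm, can be loaded into an Argonaute protein, where the seed near its 5′ end pairs with target messages. Clcn5 encodes an endosomal chloride/proton exchanger, and hairpins within an intron can be made from the same transcript as their host. RBM3 binds RNA and is induced by mild cold.

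The RefSeq annotation of GRCm38.p6 places Mir532, Mir188, Mir362, Mir501 and Mir500 in that order on the minus strand of chromosome X, all within the Clcn5 gene. Mir532 and Mir188 are 345 bases apart, Mir188 and Mir362 are 5942 bases apart, Mir362 and Mir501 are 630 bases apart, and Mir501 and Mir500 are 3468 bases apart. The Mir362 hairpin, 65 bases at chrX:7241982-7242046, is shown to place both arms, which are in capitals.
Mir362 hairpin: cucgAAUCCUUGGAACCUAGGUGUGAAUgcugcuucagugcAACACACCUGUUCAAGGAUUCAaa
The mature sequences of the names the results turn on follow from RefSeq, 5′ to 3′, with the seed, bases 2 to 8, in capitals. miR-362-5p lies at chrX:7242019-7242042, miR-362-3p at chrX:7241984-7242005 and miR-532-3p at chrX:7248419-7248440.
mmu-miR-362-5p: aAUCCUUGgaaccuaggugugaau
mmu-miR-362-3p: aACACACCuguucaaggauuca
mmu-miR-532-3p: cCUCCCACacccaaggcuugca
Arms of neighbouring hairpins are shown because their letters resemble the members or because their values differ from them. miR-500-5p lies at chrX:7237730-7237754, miR-500-3p at chrX:7237695-7237716, miR-188-5p at chrX:7248031-7248051 and miR-188-3p at chrX:7247992-7248012.
mmu-miR-500-5p: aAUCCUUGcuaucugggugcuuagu
mmu-miR-500-3p: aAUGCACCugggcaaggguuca
mmu-miR-188-5p: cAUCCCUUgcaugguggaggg
mmu-miR-188-3p: cUCCCACAugcaggguuugca

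miR-362-5p and miR-500-5p have the same seed and match at 16 of 24 aligned bases. miR-362-3p and miR-500-3p match at 17 of 22 bases with different seeds. miR-532-3p and miR-188-3p match at 17 of 21 bases when shifted by 1 base, and their seeds also differ. Within the miR-362 hairpin the arms have different seeds, so the members printed here carry 3 seeds. The array lists miR-500 without an arm. How far the probes of one of these names also bind another was not tested.

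Values are total gene signals, the background-subtracted fluorescence of a name summed over its probes in arbitrary units by the scanner software, which also flags whether a name is detected. Of the 577 names, 148 and 164 were detected on the RBM3 siRNA arrays and 178 and 191 on the control arrays. Together 216 names were detected on at least 1 array and 131 on every array. The median signal of those 131 names was 94.1 and 92.3 on the RBM3 siRNA arrays and 370 and 413 on the control arrays. The 6 positive control probes were also dimmer on the RBM3 siRNA arrays, by -0.51 to -1.56 on the log2 scale, and the part of array brightness in the differences below was not tested. No spot was saturated. All arrays were on 1 slide. Of the neural markers, miR-9 had 80.1 and 83.6 on the RBM3 siRNA arrays and 482 and 522 on the control arrays, miR-9* was also detected, and miR-124 was detected on no array. The muscle names miR-206, miR-133b, miR-133a and miR-1 were detected on every array and were brighter than miR-9 on each. The brightest, miR-206, had 2043 and 2113 on the RBM3 siRNA arrays and 4697 and 5961 on the control arrays. The dimmest, miR-133a, had 322 and 319 on the RBM3 siRNA arrays and 692 and 910 on the control arrays. miR-122 (liver), miR-223 and miR-451 (blood) and miR-126-3p (endothelium) were detected on none.

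All 4 members were dimmer on both RBM3 siRNA arrays than on either control array. miR-362-5p gave 25.1 and 17.2 on the RBM3 siRNA arrays and 124 and 141 on the control arrays. miR-362-3p gave 63.5 and 63.0 on the RBM3 siRNA arrays and 269 and 304 on the control arrays. The groups of 2 did not overlap for either arm of miR-362, as for most names: both RBM3 siRNA arrays lay under both control arrays for 79.2% of the 216 names detected on at least 1 array, and over both for 19.0%. miR-532-5p gave 7.07 and 9.46 on the RBM3 siRNA arrays and 36.2 and 38.6 on the control arrays. miR-532-3p gave 6.49 and 3.56 on the RBM3 siRNA arrays and 66.2 and 77.1 on the control arrays. Neither arm of miR-532 overlapped between groups, beside the same 79.2%. Detection divided the members: miR-362-5p, miR-362-3p and miR-532-3p were flagged as detected on every array, whereas miR-532-5p was detected on both control arrays and on neither RBM3 siRNA array. In this it was 1 of 41 names, out of the 216 detected on at least 1 array, that were detected on both control arrays and no RBM3 siRNA array.

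**Figure D1:**
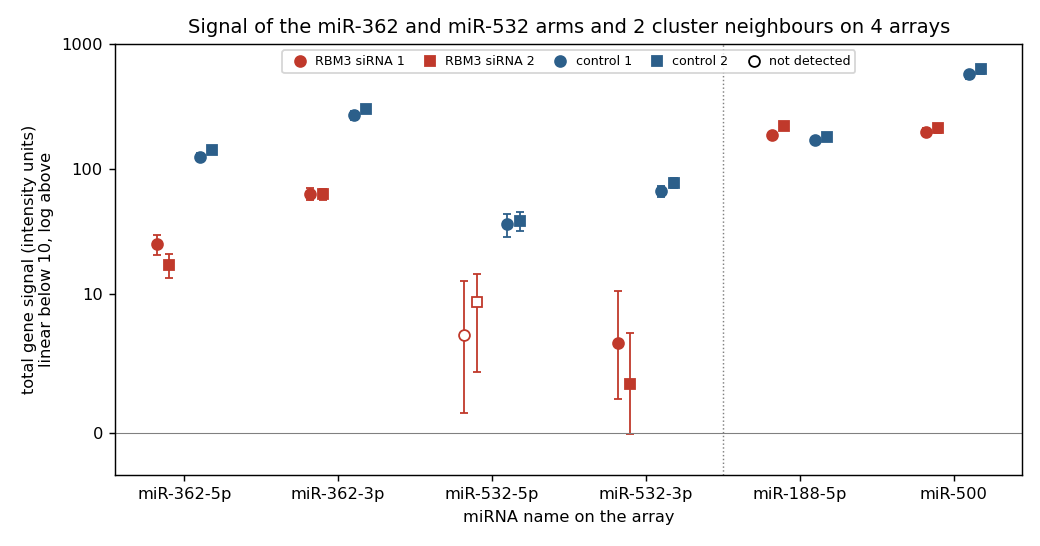
Total gene signal (vertical axis, intensity units, linear below 10 and logarithmic above) of the 4 members and, right of the dotted line, miR-188-5p and miR-500. Each point is 1 array, RBM3 siRNA in red and control in blue, bars are the error given by the scanner software, and open points were not detected; every member lies lower on the RBM3 siRNA arrays, before any scaling between arrays, while miR-188-5p does not.

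In the signals as read, with no scaling between arrays, miR-362-5p averaged 21.1 ± 5.59 on RBM3 siRNA arrays and 133 ± 12.1 on control arrays (SD, n = 2 each), 6.39-fold lower from means of log values. miR-362-3p averaged 63.2 ± 0.396 on RBM3 siRNA arrays and 286 ± 24.9 on control arrays (SD, n = 2 each), 4.52-fold lower. For miR-532-5p the mean was 8.27 ± 1.69 on RBM3 siRNA arrays and 37.4 ± 1.72 on control arrays (SD, n = 2 each). It was below detection after knockdown, and names not detected on the RBM3 siRNA arrays reached signals of 21.2 and 19.2. With those signals in place of its own, miR-532-5p was at least 1.85-fold lower. The mean of miR-532-3p was 5.03 ± 2.07 on RBM3 siRNA arrays and 71.6 ± 7.67 on control arrays (SD, n = 2 each), 14.9-fold lower. The remaining signal of miR-532-3p was close to its own error, which the scanner software put at 4.03 and 3.62 on the RBM3 siRNA arrays, so the size of its fold is poorly fixed.

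Each name is read by 20 spots. The number of these well above background was 20 on all 4 arrays for miR-362-3p. It was 6 and 5 on the RBM3 siRNA arrays and 14 and 15 on the control arrays for miR-362-5p. It was 0 on both RBM3 siRNA arrays and 9 and 10 on the control arrays for miR-532-5p, and 0 and 1 on the RBM3 siRNA arrays and 10 on both control arrays for miR-532-3p. After knockdown miR-362-3p was thus above background in every spot, and the arms of miR-532 in almost none.

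The 20 spots divide among 2 probes for miR-362-3p and miR-532-5p and among 4 probes for miR-362-5p and miR-532-3p. Both probes of miR-362-3p fell alike, the brighter giving a mean of 53.2 and 54.0 per spot on RBM3 siRNA arrays and 222 and 245 on control arrays, and the dimmer giving 42.5 and 42.1 on RBM3 siRNA arrays and 169 and 197 on control arrays. The probes of miR-532-3p behaved less evenly. Its brightest probe gave 21.4 and 20.4 on RBM3 siRNA arrays and 127 and 146 on control arrays. The next gave 6.82 and 6.59 on RBM3 siRNA arrays and 64.5 and 69.9 on control arrays. A dimmer one gave -2.09 and -9.49 on RBM3 siRNA arrays and 8.16 and 13.4 on control arrays, and the dimmest was negative on all 4 arrays. The total of miR-532-3p after knockdown thus sums positive and negative probes. By its spot means the brightest probe alone was 6.50-fold lower, against 14.9-fold for the total, and 0 and 1 of its 5 spots were well above background on the RBM3 siRNA arrays, so neither fold is firm. The same comparison gave 5.08-fold for miR-362-5p and 4.35-fold for miR-362-3p.

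**Figure D2:**
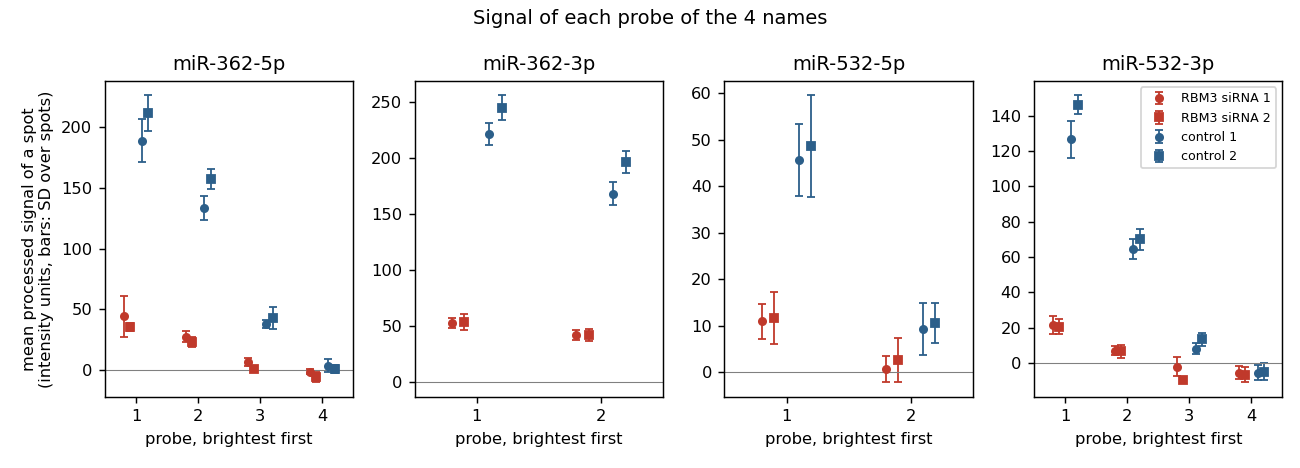
Mean background-subtracted signal per spot (vertical axis, intensity units, bars SD over spots) of each probe of the 4 members, brightest probe first, RBM3 siRNA arrays in red and control arrays in blue. On the RBM3 siRNA arrays the 2 dimmest probes of miR-532-3p and the dimmest of miR-362-5p lie below 0.

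To set the members beside all other names, log2 of the signal plus 20 was scale-normalized between arrays and fitted with limma over the 216 names detected on at least 1 array. The scaling multiplied log2 values by 1.01 and 1.013 on the RBM3 siRNA arrays and by 0.9926 and 0.9842 on the control arrays. The median difference of all names was -1.36 with no scaling and -1.21 after it. Most of the gap in signal between the groups was thus left in place. With this scaling miR-362-5p differed by -1.75, miR-532-3p by -1.74, miR-362-3p by -1.71 and miR-532-5p by -0.90 on the log2 scale (RBM3 siRNA minus control, SE 0.127 for each), and these directions turn under other scalings described below. The added 20 compresses differences, more so in dim names, so these values are smaller than the folds above. miR-362-5p, miR-532-3p and miR-362-3p stood at ranks 64, 66 and 70 of 216 from the lowest, and miR-532-5p at rank 129.

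At an adjusted p of 0.05 in limma, 166 of 216 names were called lower, 76.9%, and 40 were called higher, 18.5%. All 4 members were among those called lower, a count that the choice of members fixed and that is no test of them. miR-532-5p passed the detection filter only through the control arrays. The median difference was -1.72 for the 4 members and -1.21 for all 216 names, so on this scale the median name was lower too. Relative to that median, miR-362-5p stood at -0.54, miR-532-3p at -0.53, miR-362-3p at -0.49 and miR-532-5p at 0.32. The value and rank of miR-532-5p rest on signals that were not above background after knockdown. Among the 131 names detected on every array the median difference was -1.70, and miR-362-5p (-0.06), miR-532-3p (-0.05) and miR-362-3p (-0.01) lay close to it. On this scale the 3 members were thus about as low as the median of the names that stayed detectable. The constant added before taking logs weighs most on miR-532-3p, the dimmest of them on the RBM3 siRNA arrays. With a floor of 0.5 and no scaling instead, miR-532-3p stood at -1.74 relative to the median of all 216 names, at rank 9. In that setting miR-362-5p stood at -0.52 and miR-362-3p at -0.02 relative to the same median.

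**Figure D3:**
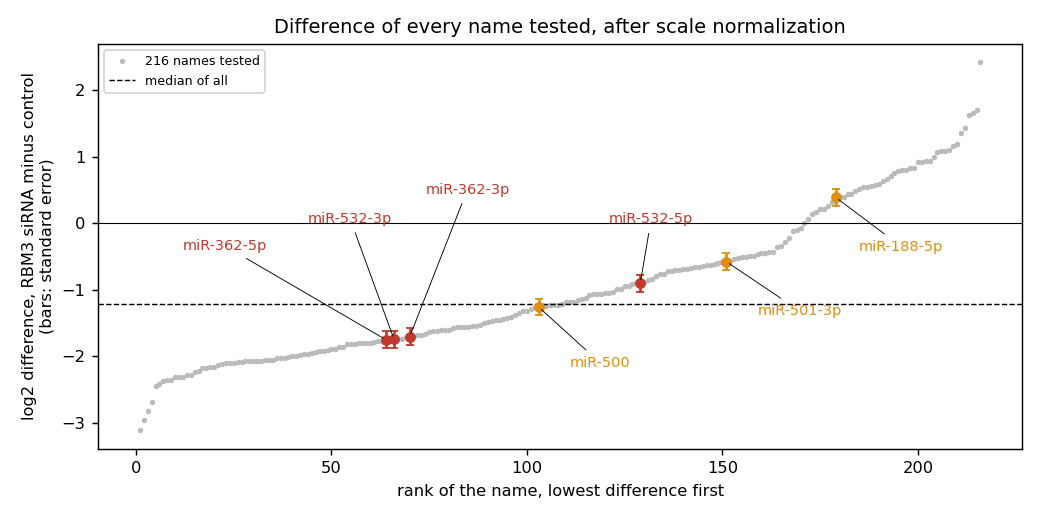
Log2 difference (vertical axis, RBM3 siRNA minus control, bars standard error) of the 216 names tested, in rank order along the horizontal axis after scale normalization. Members are red, other names of the cluster orange, and the dashed line is the median of all names at -1.21; miR-362-5p, miR-532-3p and miR-362-3p lie together under it and miR-532-5p above it, and all 4 members move above 0 when arrays are centred on their 75th percentile over names detected on every array.

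The split between lower and higher names, and the sign of the members, moved with the scaling. With no scaling there were 167 lower and 36 higher names, near the 166 and 40 above. Centring each array on the 75th percentile of the names detected everywhere gave 21 lower and 144 higher and moved the median of all names to 0.75. All 4 members then turned positive, at 0.21 for miR-362-5p, 0.23 for miR-362-3p, 0.23 for miR-532-3p and 1.08 for miR-532-5p. Quantile normalization gave 103 lower and 52 higher, normexp correction with quantile normalization 114 and 57, centring on the positive control probes 116 and 75, and matching median and median absolute deviation 57 and 92. Scale normalization with an offset of 1 gave 20 lower and 58 higher, and with a floor of 0.5 it gave 10 and 112.

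The place of a member relative to the median name was also followed. Settings that shift all names of an array alike, and changes of the replicate block, cannot move it, so the 22 settings gave 17 different values. The median was over the names tested in each setting: 131 for names detected on every array, 577 with no detection filter, otherwise 216. Over the 22 settings, miR-362-5p and miR-532-3p were below it in 22, and miR-362-3p in 21, its exception lying 0.04 above the median under quantile normalization. miR-532-5p was below it in 7 of 21 settings. How far below varied most for miR-532-3p, between -3.85 and -0.05, with ranks from 9 to 99. The -0.05 was relative to the median of the 131 names detected on every array. Its rank of 9 was reached with a floor of 0.5 and no scaling and with matched median and median absolute deviation, and its rank of 99 with its brightest probe and no scaling. In the 20 settings that ranked 216 names, the ranks of miR-362-3p ran from 66 to 114, those of miR-362-5p from 17 to 85 and those of miR-532-5p from 37 to 133. These settings reuse the same 4 arrays.

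**Figure D4:**
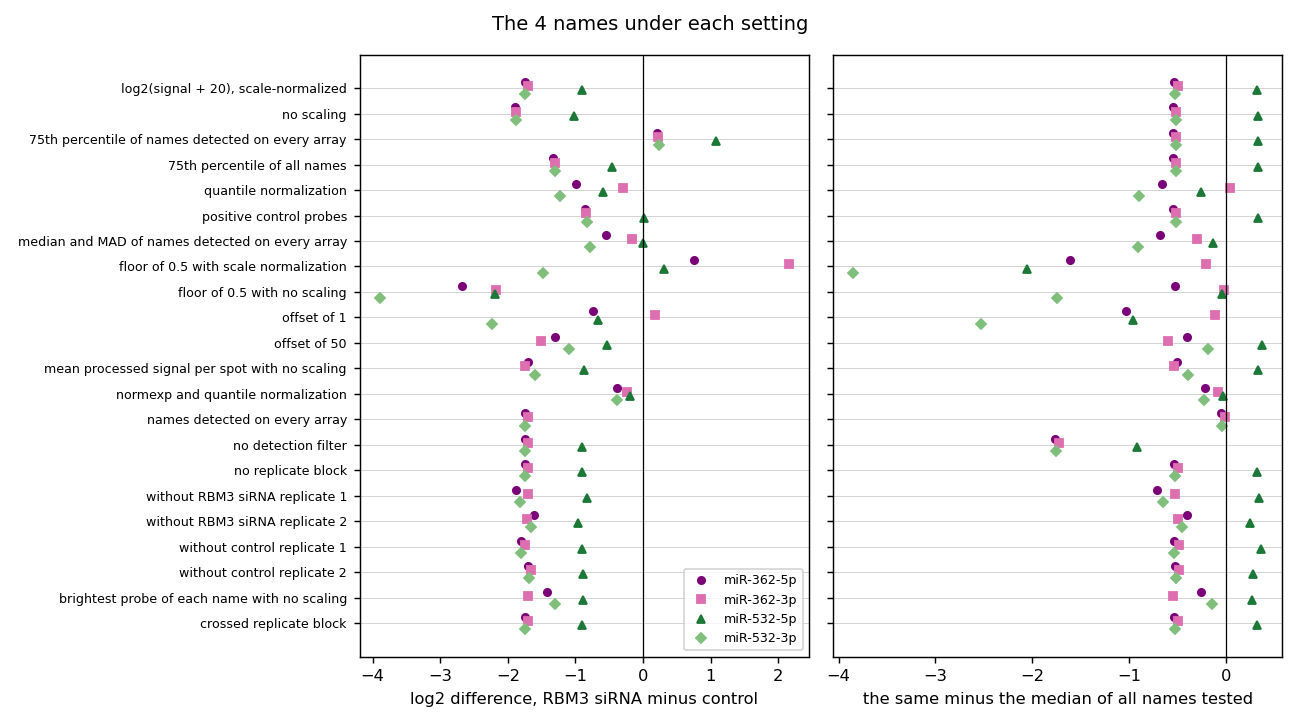
Log2 difference of each member (left, RBM3 siRNA minus control) and the same minus the median of all names tested (right), with 1 line per setting down the page. The sign on the left turns with the scaling, all 4 members lying above 0 with the 75th percentile of names detected on every array; on the right miR-362-5p and miR-532-3p stay under 0 throughout and miR-532-5p lies on both sides.

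The other names of the cluster, 5 on this array, did not share one course. miR-188-5p, from the hairpin between Mir532 and Mir362, gave 187.8 and 222 on the RBM3 siRNA arrays and 170 and 179 on the control arrays. Its groups did not overlap and the RBM3 siRNA arrays were the brighter ones. Its mean was 205 ± 24.2 on RBM3 siRNA arrays and 174 ± 6.62 on control arrays (SD, n = 2 each), a log2 difference of 0.39 after scale normalization at rank 179. It was called higher after scale normalization, but not with no scaling (0.21, adjusted p = 0.137 in limma). With no scaling it was also not called with a floor of 0.5 (0.23, adjusted p = 0.570 in limma). The same held for the mean signal per spot (0.24, adjusted p = 0.239 in limma). Without control replicate 1 or 2 the difference was 0.39 in each case, but it was no longer called. The brightest probe of miR-188-5p gave -0.12. Direction and call were kept in 15 alternatives. miR-500, from the hairpin furthest downstream, gave 198 and 211 on the RBM3 siRNA arrays and 570 and 626 on the control arrays. It was lower in both and differed by -1.26 on the scaled log2 values, at rank 103, close to the median of all names, and turned positive under 6 other settings. miR-501-3p gave -1.82 and -3.61 on the RBM3 siRNA arrays and 6.33 and 9.06 on the control arrays, where alone it was detected, and differed by -0.58, a sign that turned under 3 settings. miR-188-3p and miR-501-5p were detected on no array. Of the 3 neighbours tested, 2 were called lower and 1 higher, beside 76.9% and 18.5% of all names, and miR-501-3p, 1 of the 2, passed the detection filter only through the control arrays. The members and miR-188-5p thus differ in course although their hairpins lie within one gene, and no test of that difference was made because the members were chosen on this contrast. Relative to the median of the names tested in each setting, miR-188-5p was higher in 22 of 22 settings, by 0.37 to 2.64. The 0.37 was relative to all 577 names, with no detection filter.

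miR-329, whose mature 3p arm has the seed of miR-362-3p in the reference table, was detected on no array.

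A brightness factor common to all probes of an array cancels in the ratio of the 2 arms, and only the change of that ratio between arrays can be read, since the arms have different probes. The positive control probes did not share one factor (-0.51 to -1.56), and the part of this in the ratios was not tested. For miR-362 the 5p to 3p ratio was 0.395 and 0.273 on the RBM3 siRNA arrays and 0.463 and 0.466 on the control arrays. The groups did not overlap, with the 5p arm having the smaller share after knockdown. On the RBM3 siRNA arrays the 5p total sums positive and negative probes. The change was -0.50 on the log2 scale, with a pooled SD of 0.267 (n = 2 each), and -0.77 without RBM3 siRNA replicate 1 and -0.23 without RBM3 siRNA replicate 2. With the brightest probe of each arm it was -0.21, and after adding 20 to both signals -0.022. With normexp correction, which added an offset of 50, it was 0.39. A constant added to both arms pulls their ratio toward equality, more so in dim signals. How much of the shift to -0.022 and 0.39 came from the added constant was not tested. With no added constant the change stayed negative, between -0.77 and -0.21, but those values reuse the same arrays. The direction of the miR-362 arm change thus depended on the processing and is not settled here. For miR-532 the 5p to 3p ratio was 1.09 and 2.66 on the RBM3 siRNA arrays and 0.547 and 0.501 on the control arrays, a change of 1.70 with a pooled SD of 0.645 (n = 2 each). On the RBM3 siRNA arrays this ratio divides an undetected arm by one near its error, so no direction is read from it.

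Both arms of a hairpin were listed for 167 pairs on the array, and both were detected on every array for 8 hairpins, miR-362 among them. The change of miR-362 was the sixth by size of these 8, whose median size was 0.67. In 7 of the 8 the groups did not overlap. The most negative changes were those of miR-125a (-4.49) and miR-99b (-2.73), and the positive ones those of miR-322 (0.65) and miR-199b (0.17). miR-322 was the 1 hairpin whose groups overlapped, at 56.7 and 235 on the RBM3 siRNA arrays and 87.4 and 62.0 on the control arrays.

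**Figure D5:**
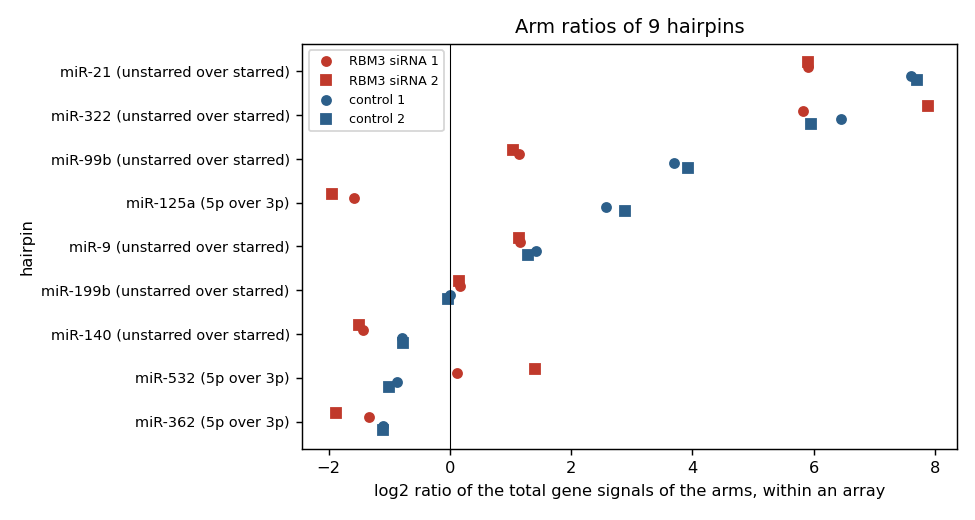
Log2 ratio of the signals of the arms within an array (horizontal axis) for the 8 hairpins with both arms detected on every array and for miR-532, RBM3 siRNA arrays in red and control arrays in blue. For miR-362 both RBM3 siRNA arrays lie to the left of the control arrays, for miR-532 to the right; only the distance between colours can be read, since arms have different probes.

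The names whose scaled log2 profile lay nearest to a member, by Euclidean distance over the 4 arrays after centring each name on its own mean, came from within and outside the cluster. For miR-362-5p the nearest was miR-532-3p (distance 0.078), followed by miR-30c (0.129). For miR-532-3p the nearest were miR-30c (0.054) and miR-350 (0.054), with miR-362-5p at rank 3 (0.078). miR-362-3p lay nearest to miR-221 (0.064) and miR-365 (0.066), with miR-532-3p at rank 18 and miR-362-5p at rank 30. miR-532-5p lay nearest to miR-450a-5p (0.122) and miR-320 (0.152), and its 3p partner was at rank 54 (0.872). Only the 131 names detected on every array were ranked as neighbours, so miR-532-5p could not be listed for another member. The arms of miR-362 were thus not each other's nearest profile. For miR-532 the distance between the arms, 0.872, was larger than that of either arm to its nearest listed name (0.122 and 0.054). With 4 arrays in 2 groups this likeness is mostly the size of the group difference. The values of both miR-532 arms were dim on the RBM3 siRNA arrays, so no divergence of these arms is read from their distance.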

How the data were processed

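The authors hybridised Cy3-labelled RNA to 1-colour Agilent mouse miRNA arrays and read them with Agilent Feature Extraction 10.1.1.1, per the file headers. The deposited values are intensity: background-subtracted signal per spot, and, per name, a total with a flag for detection. The series' value table equals that total plus 20 on a linear scale, with no scaling between arrays. Its build for array annotation differs from GRCm38.p6, the build of the RefSeq tables used here for names, order and sequences, which matched 3 of the 4 members.

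Here log2 of the total signal plus 20 was scale-normalized and fitted with lmFit and eBayes (limma 3.58.1 in R 4.3.3) over 216 names detected on at least 1 array, with the replicate number as a block, since the study's methods allow for pairing. P-values were adjusted by Benjamini-Hochberg at 0.05 and measure only the spread between these arrays. The fit leaves 1 residual degree of freedom and gave every name one shared variance. Arm ratios were compared with no test. The scripts were checked on simulated data. The members, lists and alternatives were chosen with earlier results of these data known. Named were the members, other names of the cluster, names sharing a member's seed, the 2 nearest profiles of each member, the 2 arm ratios that changed most in each direction and the cell type markers. The number of arrays limits the precision.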

Additional observations from a re-analysis of the deposited data

How the results depend on the processing

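Offsets and scaling between arrays moved the sign of the members, although of the members' turned values only the 1.08 of miR-532-5p was itself called. miR-362-5p was -1.75 as reported, 0.21 with the 75th percentile of names detected on every array, 0.75 with a floor of 0.5 and scale normalization, and no longer called with quantile normalization (-0.99) or an offset of 1 (-0.74). miR-362-3p (-1.71) was 0.23, 2.16 and, with an offset of 1, 0.18, and was not called at -0.17 after matching median and median absolute deviation. miR-532-5p (-0.90) was 1.08, 0.31 and, with positive control probes, 0.015, and was not called after matching median and median absolute deviation (-0.0063) or with an offset of 1 (-0.67). miR-532-3p (-1.74) was 0.23 with the 75th percentile of names detected on every array and was not called with the floor and scale normalization (-1.48). Apart from these, 17, 17, 15 and 19 alternatives kept direction and call for miR-362-5p, miR-362-3p, miR-532-5p and miR-532-3p, each array left out in turn included.

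The 166 names called lower became 21 with the 75th percentile of names detected on every array, 103 with quantile normalization, 57 with median and median absolute deviation, 10 with the floor and scale normalization and 20 with an offset of 1. The 40 called higher became 144 with that percentile, 75 with positive control probes, 92 with median and median absolute deviation, 112 with the floor and scale normalization and 15 among the 131 names detected on every array. The causes were not tested, apart from the last, where fewer names were fitted. The arm change of miR-362 (-0.50) was 0.39 with normexp, -0.022 after adding 20 and -0.21 by brightest probes, and that of miR-532 (1.70) was 0.27, 0.85 and 0.70, and 1.06 to 2.34 with each array left out, the extremes being without RBM3 siRNA replicate 2 and 1. Among cluster neighbours, miR-188-5p (0.39) was -0.12 by its brightest probe, and in 5 other settings it stayed positive but was not called. miR-500 (-1.26) was 0.65 with the 75th percentile of names detected on every array, 0.40 with quantile normalization, 0.27 with normexp and quantile normalization, 0.69 with median and median absolute deviation, 3.69 with the floor and scale normalization and 1.27 with an offset of 1. miR-501-3p (-0.58) was 1.43 with that percentile, 0.36 with positive control probes and 0.030 with median and median absolute deviation. The brightest-probe values and the crossed pairing were chosen after seeing the data.

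Without the replicate block 165 names were lower and 42 higher, with no call of a member changed. Deviations from the group means correlated at -0.337 between arrays of one number, over 216 names. With the numbers crossed, the counts were 167 and 40. miR-532-5p has no value among names detected on every array. Dim signal limits both arms of miR-532 on the RBM3 siRNA arrays.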
